A study of Rattus norvegicus with 27 samples.

Results

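Rat oligodendrocyte precursor cells (OPCs) were given a differentiation signal together with interferon gamma (IFNγ), a cytokine of T cells and natural killer cells. Their transcriptome after 24 h was compared with that of cells given the differentiation signal alone. The comparison was between 6 of the 27 arrays of the series. The model behind it was fitted to all 27, so the other groups also shaped the estimate of spread. The 6 were 3 arrays of T3+IFNγ at 24 h and 3 of T3 at 24 h, each trio with 1 array from each of donors 1, 2 and 3. All arrays are of cells that the methods describe as isolated from the cerebral cortices of early postnatal pups with A2B5 magnetic beads, expanded in PDGF-AA with Noggin, and then, for these 6, taken out of PDGF into thyroid hormone (T3) with or without IFNγ. The comparison cells therefore also carried T3 and the PDGF withdrawal. No genetic change was made. Whether a donor is 1 animal or a pool of pups is not given in the sources used here. All genes were taken, with 1 probe set for each of 14217 genes. No measured value chose the genes, but signal chose the probe set, the brightest over all 27 arrays, treated ones included. Levels are log2 RMA signals, on which a difference of 1 is 2-fold, and a gene is called where limma's adjusted p (Benjamini-Hochberg over the 14217 genes, donor as a block) was under 0.05.

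IFNγ binds a receptor that activates the kinases JAK1 and JAK2 and, through them, STAT transcription factors. STAT dimers bind the gamma-activated site (GAS) and induce IRF1, which, like the complex of STATs with IRF9, acts on interferon-stimulated response elements (ISREs). The targets include guanylate-binding proteins and immunity-related GTPases, the inducible subunits of the proteasome (the immunoproteasome), peptide transporters and MHC molecules. Oligodendrocyte lineage cells are the myelinating glia of the central nervous system, and T3 after PDGF withdrawal drives OPCs out of division and toward expression of myelin genes.

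The cells carried the defining genes of the lineage in both conditions. Olig1, a lineage transcription factor, read 12.59, 12.85 and 12.78 with T3 and 12.67, 13.01 and 12.77 with T3+IFNγ in donors 1, 2 and 3. Sox10, another, read 9.84, 9.85 and 9.59 against 9.93, 10.19 and 9.36. Neither was called (limma adjusted p = 0.601 and 0.86). On an array of total RNA, fewer cells of a type and less RNA per cell cannot be told apart. Whole-array correlations were 0.9953 between the T3 arrays of donors 2 and 3, but 0.9891 and 0.9855 between these and the T3 array of donor 1. The T3+IFNγ array of donor 2 had a 3′ minus 5′ log2 difference of 1.465 for beta-actin and 0.108 for Gapdh, controls of RNA integrity, where the other 5 arrays lay between 0.909 and 1.042 and between −0.243 and −0.064. The same difference for Hexokinase, a further control, was higher with IFNγ in every donor, at 2.18, 2.536 and 2.45 with T3 and 2.399, 2.793 and 2.819 with T3+IFNγ in donors 1, 2 and 3. The part of these differences in the results was not tested.

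With IFNγ, 1145 genes were called higher and 1384 lower, which is 8.05% and 9.73% of the genes tested (17.8% in either direction). Rises were larger than falls. Of the genes called and changed at least 2-fold, 367 were higher (2.58%) and 99 lower (0.696%), 92 rose at least 8-fold, and no called gene fell that far. The median change was 0.679 among called rises and −0.462 among called falls, and −0.0396 over all genes. In all 3 donors the 367 and 99 genes moved the same way. The 3 arrays of one condition did not overlap with the 3 of the other for 353 of the 367 and for 86 of the 99, which were selected for large called changes. Over all 14217 genes the treated arrays lay wholly above the T3 arrays for 11.0% and wholly below for 17.5%. Without the donor block the called genes were 847 higher and 903 lower. Without donor 2 they were 640 and 517, and without donor 3 they were 700 and 428, whereas the counts at 2-fold or more stayed within 1.5 times under every alternative run.

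Falls began mostly from high T3 signals, and rises of at least 2-fold mostly from signals under the median. With the genes in 4 bins of T3 signal from lowest to highest, 103, 157, 73 and 34 genes rose at least 2-fold, and 3, 25, 28 and 43 fell at least 2-fold. Among the 3555 genes with the lowest T3 signals (under 5.23, the lower quartile), 5.43% were called higher and 1.86% lower. Among the 3554 with the highest (above the upper quartile, 8.88), 7.06% were called higher and 18.9% lower. A group of 25 genes went from below the lower to above the upper of these bounds, and no gene made the opposite move. The bins use the same T3 signal from which the change was computed, and a gene near the lowest signals has little room to fall, so part of this pattern is set by the way it was computed.

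**Figure D1:**
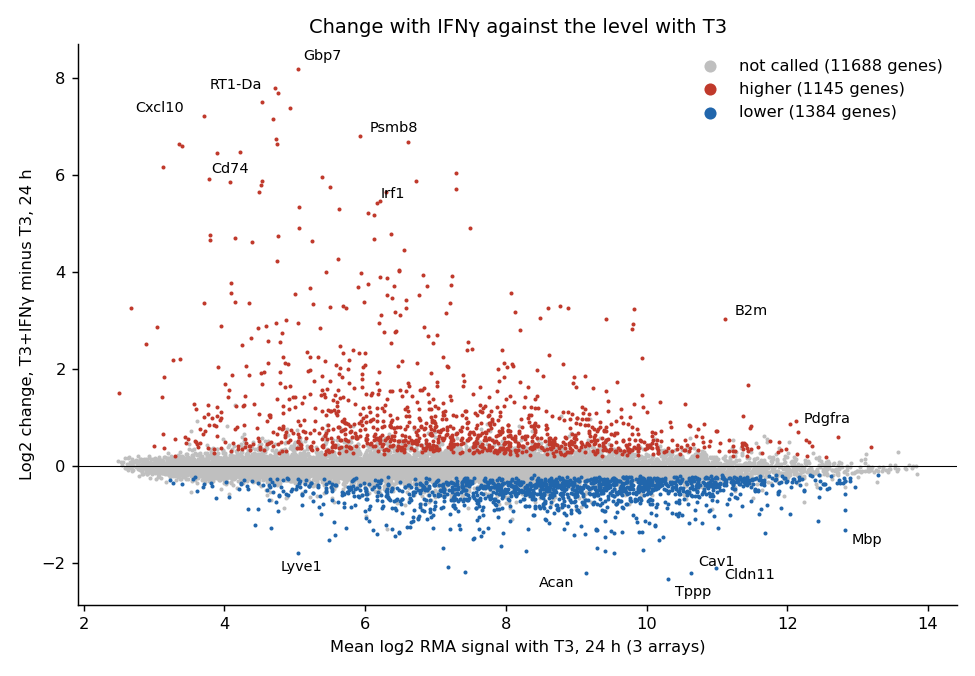
Log2 change with IFNγ at 24 h (vertical axis) against the mean log2 RMA signal with T3 (horizontal axis) for the 14217 genes, 1 point each, coloured by call. The 1145 rises reach 8.17 (Gbp7) and the largest begin at low T3 signals, while the 1384 falls reach −2.33 (Tppp) and lie mostly at high ones.

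The transcription factors that relay IFNγ were among the most strongly raised genes. Irf1, the first factor of the relay, read 6.51, 6.71 and 6.96 with T3 and 12.58, 12.71 and 12.49 with T3+IFNγ (log2 change 5.87 ± 0.144 SE, 58.4-fold, limma adjusted p = 1.47e-17). The 3 treated arrays lay within a narrow band far above the 3 controls. Irf8, a factor better known from myeloid cells, went from 5.02, 4.86 and 5.31 to 10.14, 10.47 and 10.58, a rise of 5.34. Irf9, the DNA-binding partner of STAT2, rose by 3.36 and Irf7 by 1.75. Of 16 measured genes of the interferon regulatory factor group, 9 rose and none fell, with a median change of 0.75. Of 30 measured genes of the receptor, JAK, STAT and SOCS group, 12 rose and 1, Pias4, a SUMO ligase that restrains STATs, fell (−0.57), with a median of 0.13.

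The same list holds both positive and negative arms of the pathway. Stat2 rose by 3.17, Stat3 by 1.73 and Jak2 by 1.13. Socs1, an inhibitor of the JAK kinases, read 4.25, 4.10 and 4.10 with T3 and 7.5, 7.19 and 7.90 with T3+IFNγ (log2 change 3.38 ± 0.229 SE, limma adjusted p = 2.47e-10), with no overlap. Usp18, which blocks signaling from the type I interferon receptor, rose by 3.52. The receptor chains stood apart from these: Ifngr2 rose by 0.29, and Ifngr1 had a change of 0.02 that was not called (limma adjusted p = 0.93).

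Because these factors bind short motifs near the start of their targets, the 250 bases before the annotated start were searched for a GAS motif (TTCNNNGAA, its own reverse complement) and an ISRE motif (GAAA repeated after a gap of any 2 bases, on either strand), in RefSeq promoters of build GRCr8. Of the 14217 genes, 11700 had a promoter in that table. An ISRE motif was present in 43.2% of 74 promoters of genes raised at least 8-fold, 19.4% of 294 raised at least 2-fold, 2.72% of 624 called higher by less, 0.765% of 1177 called lower and 2.37% of 9605 not called, against 3.29% of all 27457 promoters in the table. A GAS motif was present in 24.3%, 11.2%, 6.41%, 5.69% and 6.01% of the same groups and 7.52% of all promoters. The CCAAT box, a general promoter element searched for comparison on either strand, was present in 44.6%, 36.1%, 34.1%, 40.0% and 34.5%, and 34.3% of all. The shares of the ISRE and GAS motifs were highest among the genes raised most. A match is a run of letters and not a measured binding site, and neighbouring genes of a family can share sequence.

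Promoters of 5 genes of different roles are shown because they carry such motifs and belong to genes named here, with the matches in capitals. Irf1 holds a GAS match 142 bases before its start and no ISRE match. Gbp2, a guanylate-binding protein, and Psmb10, an immunoproteasome subunit, hold ISRE matches only. Tap1, a peptide transporter subunit, holds an ISRE match 121 bases before its start, and its window shares 44 bases with that of Psmb9, which runs the other way on chromosome 20. Socs1 holds a GAS match and 2 overlapping ISRE matches.
Irf1 (chr10:38417685-38417934, plus strand): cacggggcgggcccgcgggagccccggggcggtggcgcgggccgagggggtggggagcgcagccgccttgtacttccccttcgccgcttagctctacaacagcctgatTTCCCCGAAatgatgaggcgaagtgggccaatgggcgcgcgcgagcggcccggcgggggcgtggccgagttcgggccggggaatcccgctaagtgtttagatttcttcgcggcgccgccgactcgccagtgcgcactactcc
Gbp2 (chr2:234005477-234005726, plus strand): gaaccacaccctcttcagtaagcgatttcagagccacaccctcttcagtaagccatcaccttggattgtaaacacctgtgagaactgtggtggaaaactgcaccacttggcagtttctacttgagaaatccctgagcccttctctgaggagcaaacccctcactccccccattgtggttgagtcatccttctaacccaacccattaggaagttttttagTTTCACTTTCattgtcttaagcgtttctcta
Psmb10 (chr19:50743293-50743542, minus strand): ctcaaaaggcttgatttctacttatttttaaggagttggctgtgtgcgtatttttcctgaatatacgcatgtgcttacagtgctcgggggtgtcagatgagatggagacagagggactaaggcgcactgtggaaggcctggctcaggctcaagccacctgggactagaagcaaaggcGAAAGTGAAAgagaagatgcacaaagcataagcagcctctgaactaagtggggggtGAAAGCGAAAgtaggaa
Tap1 (chr20:4668544-4668793, minus strand): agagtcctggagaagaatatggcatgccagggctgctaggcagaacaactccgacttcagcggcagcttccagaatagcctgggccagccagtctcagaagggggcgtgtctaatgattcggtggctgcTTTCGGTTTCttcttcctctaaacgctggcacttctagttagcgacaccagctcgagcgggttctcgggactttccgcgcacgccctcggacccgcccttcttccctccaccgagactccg
Socs1 (chr10:5389324-5389573, plus strand): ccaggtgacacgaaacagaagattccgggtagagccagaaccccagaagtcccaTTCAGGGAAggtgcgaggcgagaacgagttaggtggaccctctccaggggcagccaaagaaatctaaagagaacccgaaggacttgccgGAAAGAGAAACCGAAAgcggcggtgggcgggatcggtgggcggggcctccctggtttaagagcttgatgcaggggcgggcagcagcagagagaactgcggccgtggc

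The GTPases of intracellular defence included the largest rise. All 9 measured members of the immunity-related GTPase and guanylate-binding protein families rose, with a median of 6.63. Gbp7 read 4.83, 4.70 and 5.59 with T3 and 13.24, 13.27 and 13.13 with T3+IFNγ, a 289-fold rise (log2 change 8.17 ± 0.243 SE, limma adjusted p = 2.1e-16). Igtp went from 4.19, 4.64 and 5.33 to 12.28, 12.53 and 12.73, which is 222-fold. Gbp2 rose by 7.15, Irgm2 by 5.71, and Irgq, with the smallest change of the 9, by 0.54. The members of these families resemble each other, so probes may be shared between them. The mean T3 signals of Gbp7, Gbp2 and Igtp lay, like those of Ubd, RT1-Da, Cd74, Cxcl10 and Serping1, under the lower quartile (5.23), among the dimmest on the array, so their folds depend on the background level and are not exact sizes.

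Antiviral effectors rose as a group: 33 of 41 measured members were called higher, 28 of them at least 2-fold, and none lower (median 2.75). Mx1, a GTPase against RNA viruses, rose by 6.48, Ifi44l by 6.60, Ifit2 by 5.65, Rsad2 (viperin) by 5.18 and Bst2 (tetherin) by 4.45. Of 14 sensors of nucleic acids and other patterns, 7 rose, led by Zbp1 (3.36), Dhx58 (1.93) and Sting1 (1.64), and none fell. Of 12 ubiquitin-like modifiers and their enzymes, 8 rose. Ubd, the modifier FAT10 that sends proteins to the proteasome, read 4.98, 5.07 and 4.76 with T3 and 12.41, 11.63 and 12.94 with T3+IFNγ (168-fold). Isg15 rose by 5.22 and its E1 enzyme Uba7 by 2.85.

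Within the proteasome the inducible and constitutive parts separated. Psmb8, a catalytic subunit of the immunoproteasome, read 5.43, 5.70 and 6.66 with T3 and 12.68, 12.69 and 12.84 with T3+IFNγ (log2 change 6.80 ± 0.216 SE, 112-fold, limma adjusted p = 5.59e-16). Psmb9 went from 6.94, 7.19 and 7.74 to 13.29, 13.33 and 13.35 (65.6-fold), and Psmb10 from 10.19, 9.47 and 9.76 to 12.90, 12.66 and 12.67 (7.63-fold). The treated and T3 arrays overlapped for none of these subunits. The PA28 activator subunits Psme1 and Psme2 rose by 2.82 and 3.04, so that 5 of 5 measured members rose.

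Psmb5, the constitutive subunit that Psmb8 replaces, read 12.30, 12.17 and 12.24 with T3 and 12.06, 11.93 and 12.09 with T3+IFNγ, lower in 3 of 3 donors with no overlap but not called (log2 change −0.21 ± 0.0833 SE, limma adjusted p = 0.0834). Of 13 measured constitutive core subunits, 3 were called higher, all by less than 2-fold (Psma7 by 0.51, Psmb2 by 0.27 and Psmb4 by 0.20), with a median of 0.03. Without donor 2 or donor 3, 1 was called higher. The calls of Psmb2 and Psmb4 were lost under 3 and 10 of the 16 alternatives. Of 27 genes of the regulatory particle and assembly, 1 rose, the proteasome inhibitor Psmf1 (1.09), 1 fell, the chaperone Psmg2 (−0.46), and the median was −0.15. The shares called were 23.1% of the constitutive core and 7.41% of the regulatory particle and assembly list, against 17.8% of all genes.

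MHC class I genes and their peptide-loading partners rose in 16 of 22 measured cases, 15 of them at least 2-fold, and none fell (median 2.50). Tap1 read 5.83, 6.10 and 6.60 with T3 and 11.32, 11.91 and 11.58 with T3+IFNγ (43.1-fold). B2m, the light chain of class I, went from 10.70, 11.04 and 11.60 to 14.15, 14.15 and 14.14, an 8.18-fold difference in signal. The treated B2m signals lay near the highest value of the table (14.49), and whether the probe set was saturated was not tested, so neither the fold nor the closeness of the donors can be read as exact. Tap2 rose by 3.89, Tapbp (tapasin) by 2.77, Erap1, which trims peptides, by 1.97, and Nlrc5, a transactivator of class I genes, by 4.61. Among heavy chains RT1-S3 rose by 5.96 and RT1-CE5 by 3.25. Class I heavy chain genes are near-identical copies, so the probe sets of single RT1 genes may cross-hybridise. The general chaperones Canx, Calr and Pdia3 were not called.

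MHC class II genes rose in 8 of 11 measured cases (7 at least 2-fold, none lower, median 2.65). RT1-Da, a class II alpha chain, read 4.81, 4.72 and 4.77 with T3 and 12.33, 12.38 and 12.65 with T3+IFNγ, which is 206-fold. Cd74, the invariant chain, went from 4.54, 4.34 and 4.71 to 9.93, 10.13 and 11.17 (59.1-fold). Ciita, the transactivator of class II genes, rose by 2.95, and RT1-DMa and RT1-DMb, which load peptides, by 2.39 and 2.68. Donor 3 gave the highest treated signal of Cd74 and RT1-Da.

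**Figure D2:**
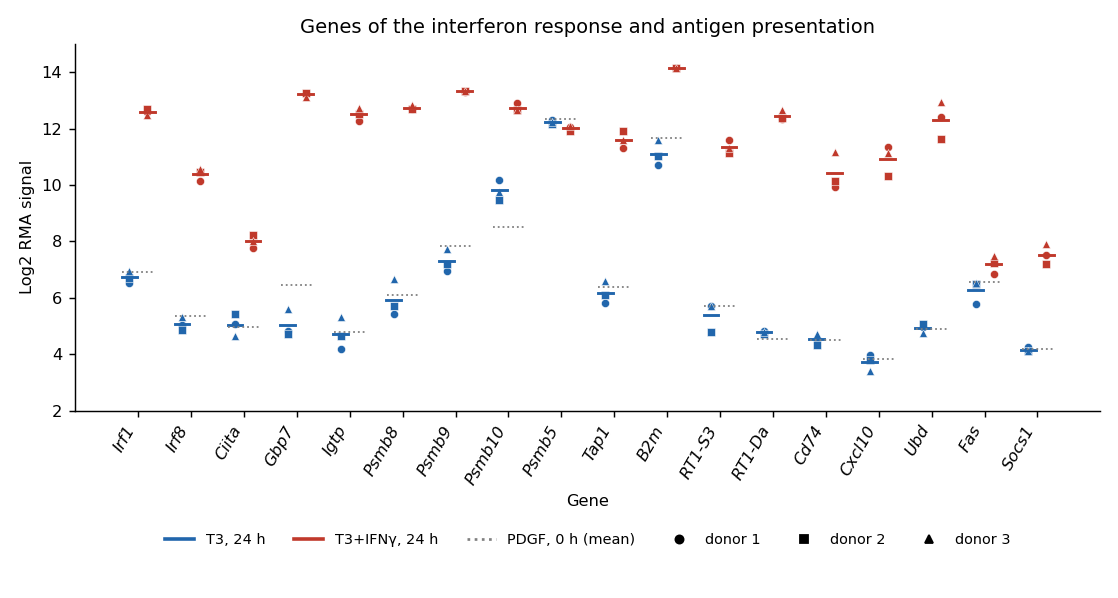
Log2 RMA signals (vertical axis) of 18 genes (horizontal axis) in each donor with T3 (blue) and T3+IFNγ (red) at 24 h. Symbols are donors, solid bars are means of 3 arrays and dotted lines the mean of the PDGF 0 h arrays. For each gene but Psmb5 the treated arrays sit above the T3 arrays, and for Psmb5 the means are 12.24 with T3 and 12.03 with T3+IFNγ.

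Markers of microglia and macrophages moved with these genes. Of 27 measured markers 14 were called higher, against 8.05% of all genes, and none lower, with a median of 1.06. Their summed linear signal ran from 2183 to 6505 over the T3 arrays and from 9672 to 24904 over the T3+IFNγ arrays, highest in donor 3 in both. Lyz2 (lysozyme) read 8.56, 8.04 and 10.05 with T3 and 11.94, 11.78 and 12.69 with T3+IFNγ, and C1qb read 5.64, 5.86 and 7.16 against 8.92, 8.55 and 10.52. P2ry12 rose by 2.47, Aif1 by 1.73 and Csf1r by 1.12. Cx3cr1 (−0.00), Tmem119 (−0.40), Itgam (0.46), Trem2 (−0.43) and Laptm5 (0.17) were not called, and 4 markers had mean T3 signals under the lower quartile. Changes were negative for 4 of the 27 markers, the lowest at −0.86. Without the donor block, 9 markers were called higher. With only the compared arrays 19 were called higher and 2 lower, and without donor 1 the counts were 12 and 2. The part of such cells in the immune genes above was not tested.

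Marker lists of other cell types had medians nearer to 0. The shares called were 31.6% of the astrocyte, 16.0% of the neuronal, 15.8% of the vascular and fibroblast and 15.4% of the T cell list. Over all genes 17.8% were called. Of 19 astrocyte markers 5 were called higher and 1 lower (median 0.09), with Aldh1l1 at 1.76 and Gfap at −0.13, the latter not called, and the summed linear signal ran from 32498 to 45424 with T3 and from 40464 to 51117 with T3+IFNγ. Of 25 neuronal markers 2 were higher, Elavl4 (1.31) and Tubb3 (1.0), and 2 lower, Gap43 (−0.78) and Ina (−0.60), with summed signals of 9954 to 12090 and 9236 to 11153. Of 19 vascular and fibroblast markers 3 were higher, Igf2 (2.25), Kdr (1.43) and Col1a2 (0.35), with 1094 to 1183 and 1269 to 1448. Of 13 T cell markers Lck was higher (0.24) and Cd28 lower (−0.28), with 411 to 434 and 418 to 492. The call of Lck was lost under 12 of the 16 alternatives and that of Cd28 under 7, both including the fit without the block and that of only the compared arrays. Without donors 2 and 3, 2 and 1 astrocyte markers were called higher. Without donor 2 no neuronal marker was called, and without donor 3 there was 1 in each direction.

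Among 31 chemokines 9 were called higher and 2 lower, with a median of 0.01. Cxcl10, a ligand of the chemokine receptor Cxcr3 on T cells, read 3.96, 3.78 and 3.39 with T3 and 11.36, 10.31 and 11.13 with T3+IFNγ (149-fold, limma adjusted p = 3.3e-15). The related Cxcl9 and Cxcl11 rose by 5.91 and 3.56, Ccl2 by 4.66 and Cxcl16 by 2.54. The falls were Cxcl1 and Cxcl2, neutrophil attractants, both at −0.40, and their calls were lost under 7 and 6 of the 16 alternatives. Of 43 cytokine ligands 7 rose, led by Il18bp, a decoy for interleukin 18 (3.72), Tnfsf10 (TRAIL, 3.26) and Il15 (2.85), and none fell. The share called was 16.3%, against 17.8% of all genes, the median was 0.01, and 4 rose without donor 3.

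Of 24 genes of adhesion and T cell co-stimulation 8 rose and none fell (median 0.14), among them Lgals9 (3.55), Icam1 (2.10) and Vcam1 (1.18). The rises numbered 5 without the block, donor 2, the T3 array of donor 3 or the T3+IFNγ array of donor 3. Of 41 genes of death receptors, caspases and necroptosis 18 rose and 1 fell, Diablo (−0.39), with a median of 0.31. Fas read 5.78, 6.47 and 6.52 with T3 and 6.84, 7.23 and 7.47 with T3+IFNγ (log2 change 0.92 ± 0.151 SE, limma adjusted p = 0.000146), and each T3 array lay below each treated array. The executioner of pyroptosis Gsdmd rose by 2.95 and Casp4 and Casp1 by 1.70 and 1.49, and the inhibitor of caspase 8 activation Cflar rose by 2.08. The list holds genes that promote and genes that oppose death.

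Of 26 measured complement genes outside C1q 6 were called higher and none lower, with a median of 0.01. The share called was 23.1%, against 17.8% of all genes, and 4 to 6 were higher and 0 to 2 lower under the alternatives. Serping1, the inhibitor of C1, read 4.34, 4.59 and 5.28 with T3 and 11.40, 11.52 and 11.49 with T3+IFNγ (106-fold). The proteases C1s and C1r rose by 4.91 and 3.46 and C3 by 3.75. Of 33 cathepsin and lysosome genes 10 rose and 1 fell, the lysosomal regulator Tfeb (−0.48), with a median of 0.18, led by Ctss (2.29), which is also in the microglial list. Of the cathepsin and lysosome list 33.3% were called, and without donor 3, 6 rose and none fell. Of 36 tryptophan, nitric oxide and redox enzymes 5 rose and none fell (median 0.01), with the phagocyte oxidase subunits Cybb (2.50) and Cyba (1.25), Wars1, a tRNA synthetase (1.73), Nqo1 (0.60) and Txn1 (0.59). The share of these enzymes called was 13.9%, against 17.8% of all genes, and without the block 3 rose. Ido1 and Nos2 were not called.

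Genes of differentiating oligodendrocytes were among the largest falls. Tppp, which bundles microtubules in oligodendrocytes, read 10.78, 10.21 and 9.92 with T3 and 8.04, 8.10 and 7.77 with T3+IFNγ (log2 change −2.33 ± 0.164 SE, 5.04-fold, limma adjusted p = 4.79e-10). The treated arrays lay near the PDGF level of 7.60 ± 0.0356 (SD, n = 3), far under the T3 arrays. Cldn11, the claudin of myelin tight junctions, went from 10.71, 11.37 and 10.86 to 8.42, 9.11 and 9.11, against 7.98 with PDGF. Mag, a myelin adhesion protein, went from 7.80, 7.61 and 7.22 to 5.97, 6.05 and 6.18 (log2 change −1.48), and Mbp, the major cytoplasmic myelin protein, from 13.35, 12.64 and 12.44 to 12.04, 11.30 and 11.17 (−1.31), against 5.0 and 8.75 with PDGF. Neither pair of groups overlapped.

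The falls were selective within the lists. Of 20 structural myelin proteins 5 were called lower (against 9.73% of all genes) and 1, the junctional protein Jam3, higher (0.41), with a median of −0.18. The count of rises lay between 0 and 2, and the call of Jam3 was lost under 7 of the 16 alternatives. The count of falls lay between 5 and 7 under every alternative run. The other falls were Nfasc (−1.21) and Tspan2 (−0.86). Cnp, an enzyme of non-compact myelin, read 13.68, 13.45 and 13.23 with T3 and 13.54, 13.53 and 13.13 with T3+IFNγ, with overlapping groups (log2 change −0.05, limma adjusted p = 0.864). Mog (−0.77), Mobp (−0.63) and Mal (−0.12), which appear late in myelination, were not called. Of 58 other genes of mature oligodendrocytes 20 were called lower and 2 higher (Enpp4 by 1.22 and Pdlim2 by 0.51), with a median of −0.17. Beside Tppp, the falls included Crym (−1.39), Tubb4a (−1.24), Fa2h (−0.93) and Enpp6, a marker of newly formed oligodendrocytes (−1.38). The calls of Pdlim2 and Enpp6 were each lost under 5 of the 16 alternatives. Without donor 3 the falls numbered 11, without donor 2 they numbered 13, and without the T3 array of donor 1 they also numbered 13.

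Of 22 committed and premyelinating genes 6 were lower and 1, Cemip2, higher (0.49), with a median of −0.16, but the falls numbered 1 without donor 2, 0 without donor 3 and 2 without the T3 array of donor 1 or the T3+IFNγ array of donor 2. They numbered 3 without the T3+IFNγ array of donor 3. Of 29 lineage transcription factors 4 were higher, led by Myt1 (1.0) and Klf6 (0.92), and 4 lower, among them Nkx6-2 (−1.22). These counts were 0 higher and 1 lower without donor 2, 2 and 0 without donor 3, 3 and 1 without the T3 array of donor 1 or the T3+IFNγ array of donor 3, and 2 and 2 without the T3+IFNγ array of donor 2. Myrf, the activator of myelin genes, read 10.21, 9.79 and 9.49 with T3 and 9.46, 9.40 and 8.61 with T3+IFNγ (log2 change −0.67 ± 0.213 SE, limma adjusted p = 0.0324), and the lowest T3 array lay just above the highest treated array. That call was lost under 6 of 16 alternatives, and that of Nkx6-2 also under 6. Olig2 and Nkx2-2 were not called. With all arrays the shares called were 31.8% of the committed and premyelinating genes and 27.6% of the lineage transcription factors, against 17.8% of all genes.

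Pdgfra, the receptor that defines OPCs, read 11.60, 12.37 and 12.50 with T3 and 12.66, 12.99 and 12.95 with T3+IFNγ (log2 change 0.71 ± 0.136 SE, limma adjusted p = 0.000702), against 12.74 ± 0.0506 (SD, n = 3) with PDGF. The 3 treated arrays lay above the 3 T3 arrays. Of 26 Sox, Hes and Id regulators 7 rose, among them Sox11 (1.55), Hey1 (1.22), Prox1 (1.05) and Sox3 (0.88), and 1 fell, Hes6 (−0.37), with a median of 0.13, and 4 rose without donor 2 or donor 3. Of 45 OPC receptors and proteoglycans 6 rose and 7 fell (median −0.05), but 2 rose and 1 fell without donor 2 or donor 3, 4 rose and 4 fell without the block, either of the T3 arrays of donors 2 and 3 or the T3+IFNγ array of donor 2, and 3 rose and 6 fell without the T3 array of donor 1. With all arrays the shares called were 30.8% of the Sox, Hes and Id list and 28.9% of the OPC receptors and proteoglycans, against 17.8% of all genes. Cspg4, the NG2 proteoglycan, had a change of −0.04 that was not called. Vcan fell by 0.98, and Acan, the proteoglycan aggrecan, went from 9.48, 8.98 and 8.95 with T3 to 7.18, 7.09 and 6.57 with T3+IFNγ, against 6.10 with PDGF.

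**Figure D3:**
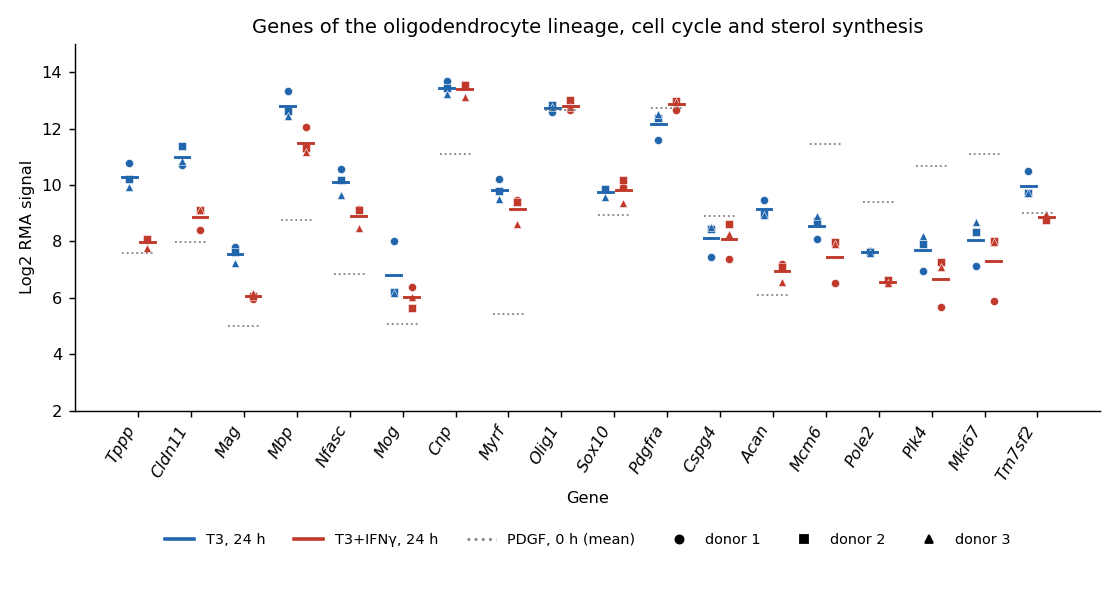
Log2 RMA signals (vertical axis) of 18 genes (horizontal axis) in each donor with T3 (blue) and T3+IFNγ (red) at 24 h. Symbols are donors, solid bars means of 3 arrays, dotted lines the mean of the PDGF 0 h arrays. Tppp, Cldn11, Mag and Mbp lie lower with IFNγ in every donor, Pdgfra lies higher, and Cnp, Olig1 and Sox10 overlap.

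Of 26 measured thyroid hormone genes 4 were higher and 2 lower (23.1% called, against 17.8% of all genes), with a median of −0.03. None was higher and 1 was lower without donor 2 or donor 3. The count of higher genes was 1 without the block, without any single T3 array at 24 h or without the T3+IFNγ array of donor 3, and 2 without that of donor 2. Klf9, a direct target of the T3 receptor, read 10.04, 10.01 and 10.11 with T3 and 10.40, 10.57 and 10.49 with T3+IFNγ (log2 change 0.43, limma adjusted p = 0.0425), a call lost under 10 of 16 alternatives. Hr, another target, read 8.43, 9.17 and 8.94 against 8.43, 9.16 and 8.35 and was not called. The 2 falls were Crym, which binds T3 in the cytosol (−1.39), and Dio3, which inactivates it (−0.59).

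Genes of DNA replication and mitosis leaned lower. Of 47 replication genes 23 were called lower and 1 higher, the activator E2f2 (0.94), with a median of −0.51. Mcm6, a subunit of the replicative helicase, read 8.07, 8.71 and 8.91 with T3 and 6.53, 7.97 and 7.89 with T3+IFNγ (−1.10), and Pole2, a polymerase subunit, 7.67, 7.61 and 7.60 against 6.54, 6.64 and 6.53 (−1.05). The groups overlapped for neither gene, and donor 1 had the lowest Mcm6 signal in both conditions. Of 44 mitosis genes 14 were called lower and none higher, with a median of −0.61. Plk4, which duplicates centrioles, fell by 1.01, and Mki67 had a change of −0.76 that was not called (limma adjusted p = 0.0895).

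The number of cell cycle calls moved with the arrays used. For mitosis it was 2 without the donor block, 40 with only the 6 compared arrays, 34 with array weights, 1 without donor 2, donor 3, the T3 array of donor 3 or the T3+IFNγ array of donor 1, 4 without the T3 array of donor 2, 6 without the T3+IFNγ array of donor 2, and 23 without the T3 array of donor 1, while the median stayed between −0.87 and −0.32. For replication it was 8 without the block, 10 without donor 2 or donor 3, 14 without the T3 array of donor 3 and 36 with only the compared arrays, with medians from −0.55 to −0.45. Of 24 D cyclins and CDK inhibitors 37.5% were called, against 17.8% of all genes. There were 4 higher, led by the stress genes Gadd45b (2.00) and Gadd45g (1.21), and 5 lower (median −0.12). These were 3 and 1 without donor 2, 2 and 1 without donor 3, 3 and 3 without the block, 2 and 4 without the T3 array of donor 1, 4 and 2 without that of donor 2 or donor 3, and 3 and 2 or 2 and 3 without the T3+IFNγ array of donor 2 or donor 3.

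Lipid synthesis also leaned lower. Of 26 sterol synthesis genes 14 were called lower and 1 higher, the exporter Abcg1 (0.88), with a median of −0.45. Tm7sf2, a sterol reductase, read 10.49, 9.72 and 9.73 with T3 and 8.83, 8.74 and 8.98 with T3+IFNγ (−1.13), with no overlap. The sterol falls numbered 6 without the block, 2 and 1 without donors 2 and 3, 1 without the T3 array of donor 1, and 6, 5 and 4 without the T3+IFNγ arrays of donors 1, 2 and 3, with medians from −0.58 to −0.28. Of 46 genes of fatty acid and myelin lipid synthesis 14 fell, among them Acsl1 (−1.34) and Fa2h (−0.93), and 4 rose, Plaat3, a phospholipase (3.30), Fabp5 (0.93), Acsl5 (0.73) and Lpin1 (0.52). These falls numbered 9 without the block, 6 and 3 without donors 2 and 3, and 8 and 7 without the T3 array of donor 1 and the T3+IFNγ array of donor 3. Lpl, a lipase outside these lists, went from 7.16, 6.35 and 8.01 to 5.73, 4.71 and 4.84.

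Of 69 genes of the respiratory chain and ATP synthase 17 were called lower and none higher, all by less than 2-fold (median −0.15), and no fall was called without donor 2. The falls numbered 2 without donor 3, 4 with only the compared arrays, 7 without donor 1 or the T3+IFNγ array of donor 2, and 8, 9 and 10 without the T3 array of donor 1, without that of donor 2 and without the block. Of 42 cytosolic ribosomal proteins 3 were lower and none higher (median −0.09), with 0 lower without donor 2 and 1 without the T3+IFNγ array of donor 2. Glycolysis and hypoxia genes had 3 higher, led by Pfkp (1.85), and 1 lower, Ldha (−0.49), of 34, and 1 higher and 0 lower without donor 2. Of 36 genes of ER stress and the amino acid response 3 rose, Cebpb (1.48), Slc7a3 (1.31) and Slc7a11 (0.97), and 3 fell (median −0.06). The falls numbered 7 without donor 1 and 1 without donor 3 or the T3 array of donor 1. Of the respiratory chain and ribosomal lists 24.6% and 7.14% were called. Of the glycolysis and hypoxia list 11.8% and of the ER stress list 16.7% were called, against 17.8% of all genes.

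**Figure D4:**
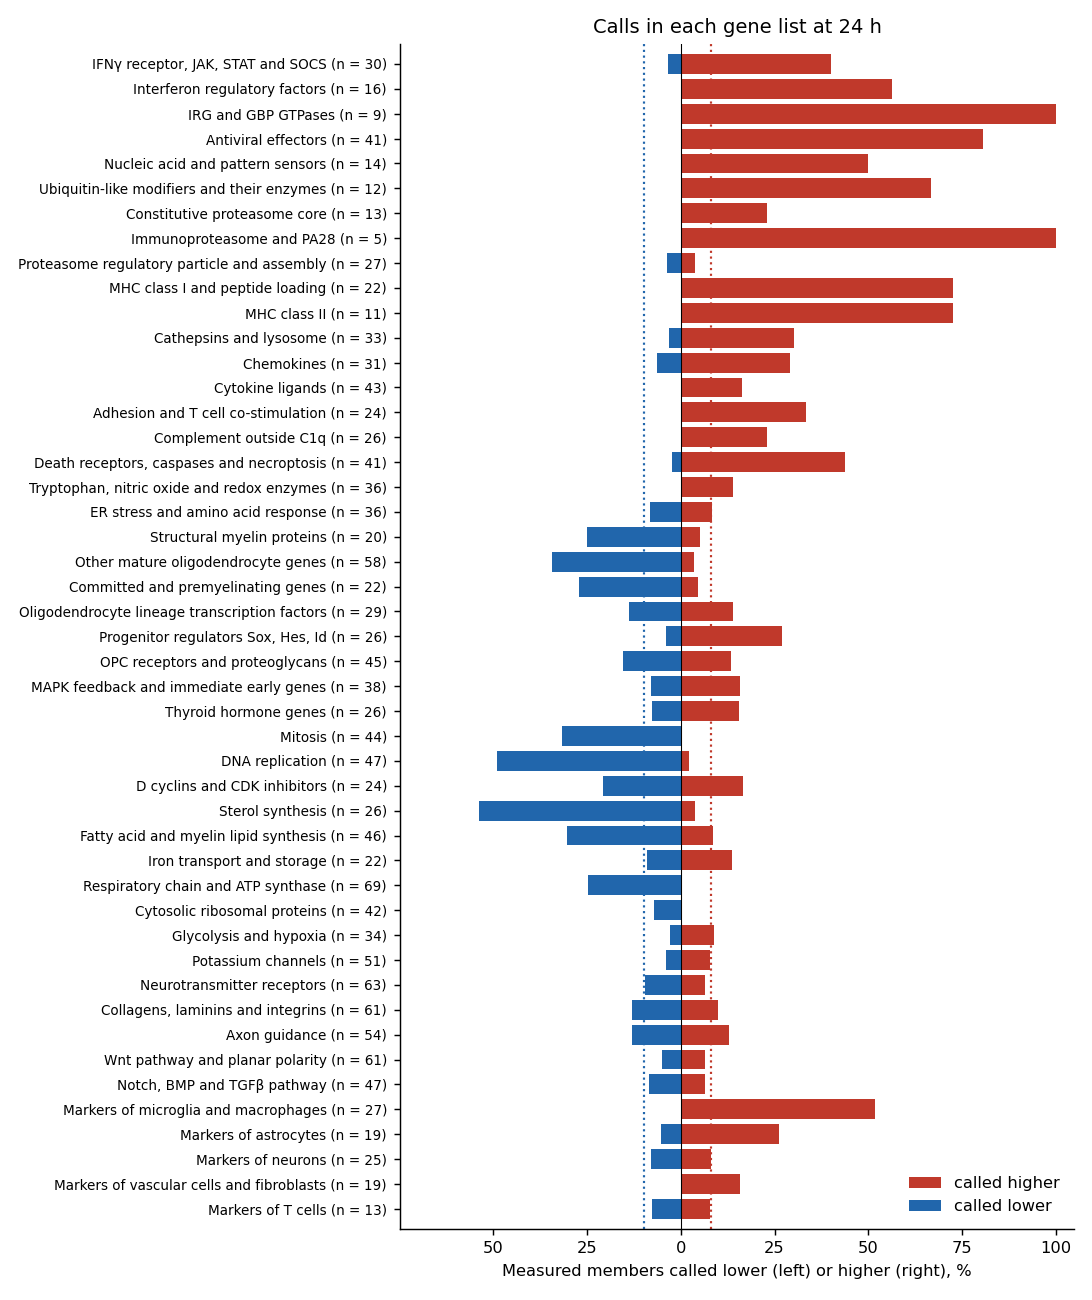
Share of measured members called higher (red, right) or lower (blue, left) at 24 h in each of 47 gene lists, with the number measured in brackets. Dotted lines mark the shares over all genes, 8.05% higher and 9.73% lower. The interferon, immunoproteasome and MHC lists extend to the right, and the replication, sterol and mature oligodendrocyte lists to the left.

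The response at 24 h was set against those at 8 and 48 h, which share no array with it, by a test of the difference of the changes. Between 24 h and 8 h, 211 genes differed (1.48% of those tested), 118 with a more positive change at 24 h and 93 with a more negative one. Of these 211, 100 were rises that were larger at 24 h and 67 were falls that were deeper at 24 h, while 9 were rises that were smaller. They included MHC genes: 8 of 22 class I genes and 6 of 11 class II genes rose more at 24 h, and none less. Cd74 changed by 2.21 ± 0.284 (SE) at 8 h and 5.89 at 24 h, and outside the lists the class I genes RT1-A by 1.80 and 4.75 and RT1-N2 by 0.30 and 4.75. Rnf128, a ubiquitin ligase, ran the other way, with 4.85 at 8 h and 2.24 at 24 h. Tppp changed by −0.53 and −2.33. Without donor 2, 6 genes were more positive and 4 more negative, and without donor 3 the counts were 18 and 9. They were 51 and 44 without the block and 256 and 278 with array weights.

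Between 24 h and 48 h, 159 genes differed (1.12% of those tested), 99 more positive and 60 more negative at 24 h. Of these, 77 were not called at 24 h, among them Prickle1, a planar polarity gene (−0.74 at 24 h and −3.52 at 48 h), Dct (0.26 and −3.07) and Ptgds, a prostaglandin synthase (−0.18 and −2.64). Vgf, a secreted neuropeptide precursor (−0.07 and 2.46), was another. Gadd45b changed by 2.00 at 24 h and −0.48 at 48 h, and Saa3, an acute phase protein, was raised more at 48 h (1.42 and 4.21). Of the replication genes 6 of 47 had a more negative change at 24 h, and the median over that list was −0.10 at 8 h, −0.51 at 24 h and 0.10 at 48 h. Without donor 2, the counts over all genes were 1 more positive and 3 more negative, and without donor 3 they were 42 and 8. They were 50 and 22 without the block, 40 and 32 with only the compared arrays, and 329 and 374 with array weights.

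**Figure D5:**
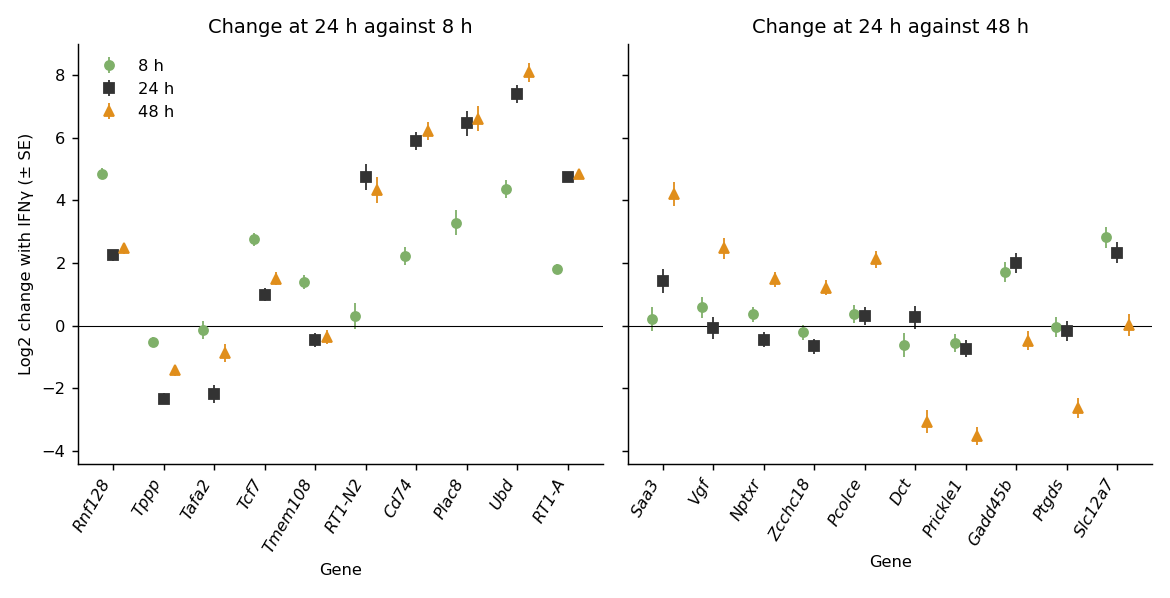
Log2 change with IFNγ (vertical axis, ± SE of the fit over 27 arrays) at 8, 24 and 48 h for the 10 genes with the largest differences between 24 and 8 h (left) and between 24 and 48 h (right). Cd74 and RT1-A are higher at 24 and 48 h than at 8 h, whereas Prickle1 and Dct are lowest at 48 h.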

How the data were processed

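Rat OPCs were measured on 27 Affymetrix rat genome arrays, 3 donors in each of 9 groups. Per the labels, the authors computed the deposited log2 values with RMA and named limma, with no version given for either. RMA makes arrays comparable by quantiles, so a shift of all genes would not be seen. The values were used as deposited, with no low-signal filter. Of 31099 probe sets, 20826 with 1 gene symbol in the platform annotation and no control role gave 14217 genes, each by its brightest probe set over 27 arrays. Probe sets of 3 genes were called in opposite directions. limma 3.58.1 in R 4.3.3 fitted 9 group means with donor as a block, then eBayes. Deviations from the group means correlated between arrays of the same donor (median 0.31, lowest −0.031). Between donors the median was −0.171, where a negative value follows from centring each group on its mean. The contrasts were T3+IFNγ minus T3 at 24 h, and that change minus the changes at 8 and 48 h. All 27 arrays entered the fit, so those of the other groups also set the donor terms and the spread. The p-values rest on the spread left between these cultures once group means and donor terms are taken out. The number of arrays limits the precision. In simulated data on 14217 genes for the 24 h comparison, 73.1% of 1.5-fold, 92.5% of 2-fold and 100% of 4-fold changes were called. These data had independent normal noise and the same donor effect in every group, as the fitted model assumes. Far fewer genes were changed in them than were called in the real data, and the adjusted p depends on that number. The shares may therefore not hold for the real arrays. Genes named are the 15 largest rises and falls shared in sign by the donors, at most 5 called genes per list (47 lists) and those against their list's direction, preset genes whatever their result, the 5 largest differences of each sign in each comparison of times, and the 5 called genes of widest donor spread, less those covered by family counts. Members and lists were chosen with earlier results of these data known. Alternatives were no block, only the compared arrays, each donor or array left out, median centring, leaving out the dimmest genes, the mean of probe sets, array weights, and eBayes with trend and robust settings. Promoter sequences are from RefSeq (GRCr8).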

Additional observations from a re-analysis of the deposited data

Results flagged for a closer look

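Of the differences between times, the largest of each sign are listed as log2 change at 24 h minus that at the other time, each with limma's test of the difference. Against 8 h they were 4.45 for RT1-N2, 3.67 for Cd74, 3.17 for Plac8, 3.03 for Ubd and 2.95 for RT1-A, and −2.62 for Rnf128, −2.03 for Tafa2, −1.88 for Tmem108, −1.80 for Tppp and −1.75 for Tcf7 (limma adjusted p from 8.02e-08 to 0.0121). Rnf128, Tppp, Cd74 and RT1-A passed without each donor in turn. RT1-N2 did not pass without donor 2 (adjusted p = 0.146), nor did Plac8 without donor 2 or donor 3 (0.0739 and 0.0643), Ubd without donor 3 (0.0993), Tafa2 without donor 2 or donor 3 (0.476 and 0.0528), Tmem108 without donor 2 (0.229) or Tcf7 without donor 2 or donor 3 (0.124 and 0.304).

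Against 48 h the differences were 3.33 for Dct, 2.78 for Prickle1, 2.48 for Gadd45b, 2.46 for Ptgds and 2.31 for Slc12a7, and −2.79 for Saa3, −2.53 for Vgf, −1.93 for Nptxr, −1.88 for Zcchc18 and −1.81 for Pcolce (limma adjusted p from 0.00156 to 0.0254). None of these 10 passed without donor 2, with adjusted p from 0.104 (Nptxr) to 0.42 (Slc12a7). Without donor 3 Vgf, Nptxr and Pcolce did not pass (0.232, 0.205 and 0.351), and without donor 1 Saa3 did not (0.0687).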

How the results depend on the processing

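All 264 called changes of named genes kept their direction in each of the 16 alternatives that gave a value, and 155 were called in each. Without the block, with only the compared arrays and with trend and robust eBayes, the change itself is the same by design. The other alternatives reuse most of the same values on genes already called, so a kept direction says little. Among the uncalled, Cspg4, Olig2, Sox10 and Vgf, all near 0, changed sign under some. The counts at 2-fold or more stayed within 1.5 times. Without the replicate block (donors not paired), 903 genes were lower at 24 h, and the differences from 8 h were 51 more positive and 44 more negative, from 48 h 50 and 22. With only the compared arrays the differences from 48 h were 40 and 32, with median centring 39 were more negative, and with array weights the differences were 256 and 278 from 8 h and 329 and 374 from 48 h. Leaving out one donor or array gave 640 to 1069 genes higher and 428 to 1295 lower at 24 h, 6 to 166 more positive and 4 to 149 more negative against 8 h, and 1 to 108 and 3 to 103 against 48 h. The lowest values came without donor 2, except that of genes lower at 24 h, which came without donor 3. A fit without 1 donor has fewer arrays and donors, and no other cause was tested. Median centring gave 1004 higher and 1831 lower, 35.4% of calls being higher against 45.3%, and a median over all genes of −0.0832 against −0.0396. Arrays give no read depth. Low signals near the background have no reliable order, and 3 arrays a condition limit small changes most.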

Other observations

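The shares called in the following lists, in either direction, stand against 17.8% of all genes. Of 63 neurotransmitter receptors 4 rose and 6 fell (15.9%), with P2ry12, which is also a microglial marker, at 2.47, the adenosine receptor Adora1 at 1.02, the purine receptor P2ry1 at −1.45 and the GABA receptor subunit Gabrg1 at −1.10. Of 51 potassium channels 4 rose, led by Kcnt1 (1.89), and 2 fell (11.8%), and of 22 iron genes 3 rose, led by ceruloplasmin Cp (1.72), and 2 fell (22.7%). Of 38 genes of MAPK feedback and immediate early response 6 rose, among them Fos, which read 7.93, 7.30 and 7.33 with T3 and 10.20, 9.83 and 9.75 with T3+IFNγ, Spry1 (1.55) and Jun (1.19), and 3 fell (23.7%). Egr1 was not called.

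Of 61 collagens, laminins and integrins 6 rose, among them Col16a1 (1.13), and 8 fell, led by Col9a1 (−1.75), which is 23.0%. Of 54 axon guidance genes 7 rose, led by the semaphorin receptor Plxnc1 (1.45), and 7 fell, led by Sema3d (−1.32), which is 25.9%. Of 61 Wnt and planar polarity genes 4 rose, with the antagonist Dact1 at 1.56, and 3 fell, with Lgr5 at −1.45 (11.5%). Of 47 Notch, BMP and TGFβ genes 3 rose, with the Notch ligand Dll1 at 0.63, and 4 fell, with the ligand Jag1 at −0.91 (14.9%). The medians of these lists lay between −0.03 and −0.00.

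Most of these counts were lower when a donor was left out. Without donor 2 and without donor 3 the rises and falls were 1 and 3, and 3 and 3, for axon guidance, 3 and 4, and 4 and 2, for collagens, laminins and integrins, and 4 and 3, and 3 and 2, for neurotransmitter receptors. They were 3 and 1, and 2 and 0, for potassium channels, 1 and 1, and 1 and 0, for iron genes, 5 and 1, and 6 and 1, for the MAPK and immediate early genes, and 1 and 3, and 2 and 2, for Notch, BMP and TGFβ genes. For axon guidance, 2 rose without the T3 array of donor 1, 3 rose without the T3+IFNγ array of donor 2, 4 rose without the T3+IFNγ array of donor 3 or the block, and 3 fell without the T3 array of donor 2 or donor 3 or the T3+IFNγ array of donor 1.

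Other large falls lay outside the myelin lists. Cav1 (caveolin 1) had a change of −2.20, with a call that was lost without the donor block (limma adjusted p = 0.0519). Tafa2, a secreted protein of neural tissue, fell by 2.18, Pld1, a phospholipase D, by 1.79 and Lyve1, a hyaluronan receptor, by 1.78. Cpm, a carboxypeptidase, fell by 1.74 and Rps6ka5, the kinase MSK1, by 1.73. The calls of Lyve1 and Rps6ka5 were lost without donor 2 and without donor 3.

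Mgp, matrix Gla protein, an inhibitor of calcification, read 8.41, 5.83 and 5.59 with T3 and 13.72, 13.10 and 13.07 with T3+IFNγ. The within-donor changes had the largest SD for Ptgs2 (cyclooxygenase 2), at 1.5, 2.77 and 4.32 in donors 1, 2 and 3 (SD 1.42), followed by RT1-N2 at 6.18, 4.67 and 3.41, Mgp, Ifgga2l1 at 8.59, 7.68 and 6.21, and Plac8 at 6.0, 5.71 and 7.65. A group of 9 genes fell more at 24 h than at both 8 and 48 h, among them Reln (reelin), with changes of 0.21, −1.06 and 0.23 at 8, 24 and 48 h, and Cdk14, with −0.09, −1.30 and 0.25. A group of 8 rose more at 24 h than at both, among them Lrfn2 (1.21, 1.97 and 0.53) and Fxyd7 (0.06, 1.65 and 0.27). Both groups rest on the tests of the difference between times, and the genes were chosen after their values were seen. Without donor 2, only 4 genes of all tested were more negative at 24 h than at 8 h and 3 than at 48 h. Those more positive numbered 6 and 1, so most of each group would not pass both tests without that donor.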
